A study of Mus musculus with 6 samples.

Results

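Sulfur amino acid metabolism in mouse liver was followed through 10 genes that handle methionine, cysteine and taurine, picked by name: Mat1a, Mat2a, Gnmt, Bhmt, Ahcy, Pemt, Cbs, Cth, Cdo1 and Csad. All 10 were found among the 34745 genes of the expression table. All 10 also passed the filter on low values, under which a gene had to reach an FPKM of 1 in 2 or more libraries, and which left 11435 genes for testing. FPKM is a gene's number of fragments relative to its length and to the total of its library. Tumour (hepatocellular carcinoma) and precancerous liver, which is described as adjacent tissue, came from untreated Hras12V transgenic mice, which carry an activated form of the oncogene Hras. Normal liver came from untreated wild-type (WT) mice, and all mice were of the C57BL/6 strain. Each tissue was taken from males at 9 months of age and from females at 15 months, with 1 messenger RNA library for each of the 6 combinations, and sex therefore cannot be told apart from age. Neither the promoter that drives the transgene nor the number of mice behind a library is stated in the labels.

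The methionine cycle turns methionine into S-adenosylmethionine, the methyl donor of the cell, and returns the homocysteine that is left to methionine. Homocysteine can instead leave the cycle by transsulfuration, which makes cysteine, and cysteine is then used for glutathione or oxidised on the way to taurine. Liver carries most of this traffic, and hepatocytes are known for high levels of its enzymes. Loss of the liver form of methionine adenosyltransferase, with gain of the form found in other tissues, is a well-known feature of hepatocellular carcinoma in humans and rodents.

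Total counts ran from 5996585 to 18434508 per library, with all 3 male libraries below all 3 female ones. That the libraries are of liver was checked with 7 hepatocyte markers (Alb, Ttr, Apoa1, Apoc3, Fgb, Hnf4a and Cps1), none of which was at 0 in any library. This check cannot tell normal, precancerous and tumour liver apart. Their summed level was 32174 and 46829 FPKM in male and female normal liver, 47584 and 52536 FPKM in precancerous tissue, and 65865 and 64099 FPKM in tumour. Alb, the albumin gene, made up most of that sum.

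In the GRCm38 build Mat1a lies on chromosome 14 from 41105381 to 41124412, Bhmt on chromosome 13 from 93616891 to 93637961 and Csad on chromosome 15 from 102176998 to 102189043. Mat2a spans chromosome 6 from 72432799 to 72439558, and Gnmt spans chromosome 17 from 46725664 to 46729168.

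In the tumours, 8 of the 10 genes were expressed at a lower level than in precancerous liver, and the tested change passed the threshold for all 8. These were Bhmt, Gnmt, Ahcy, Pemt, Mat1a, Cth, Cbs and Cdo1, with log2 fold changes between -2.45 and -1.08. Of all tested genes 12.1% were called lower in this comparison. The calls depended on the sex term and on the precancerous libraries, as given below. Mat2a, the methionine adenosyltransferase of tissues outside adult liver, did not fall. Csad, which makes the precursor of taurine, had a lower level in precancerous tissue than in normal liver of WT mice, at a like level to tumour. That difference from normal liver was not called by edgeR (adjusted p = 0.0879), and other settings differed in the call, as given below. Together the 10 genes took 0.851% of all counts in normal, 0.801% in precancerous and 0.263% in tumour liver of males, and 1.06%, 0.826% and 0.307% in those of females.

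**Figure D1:**
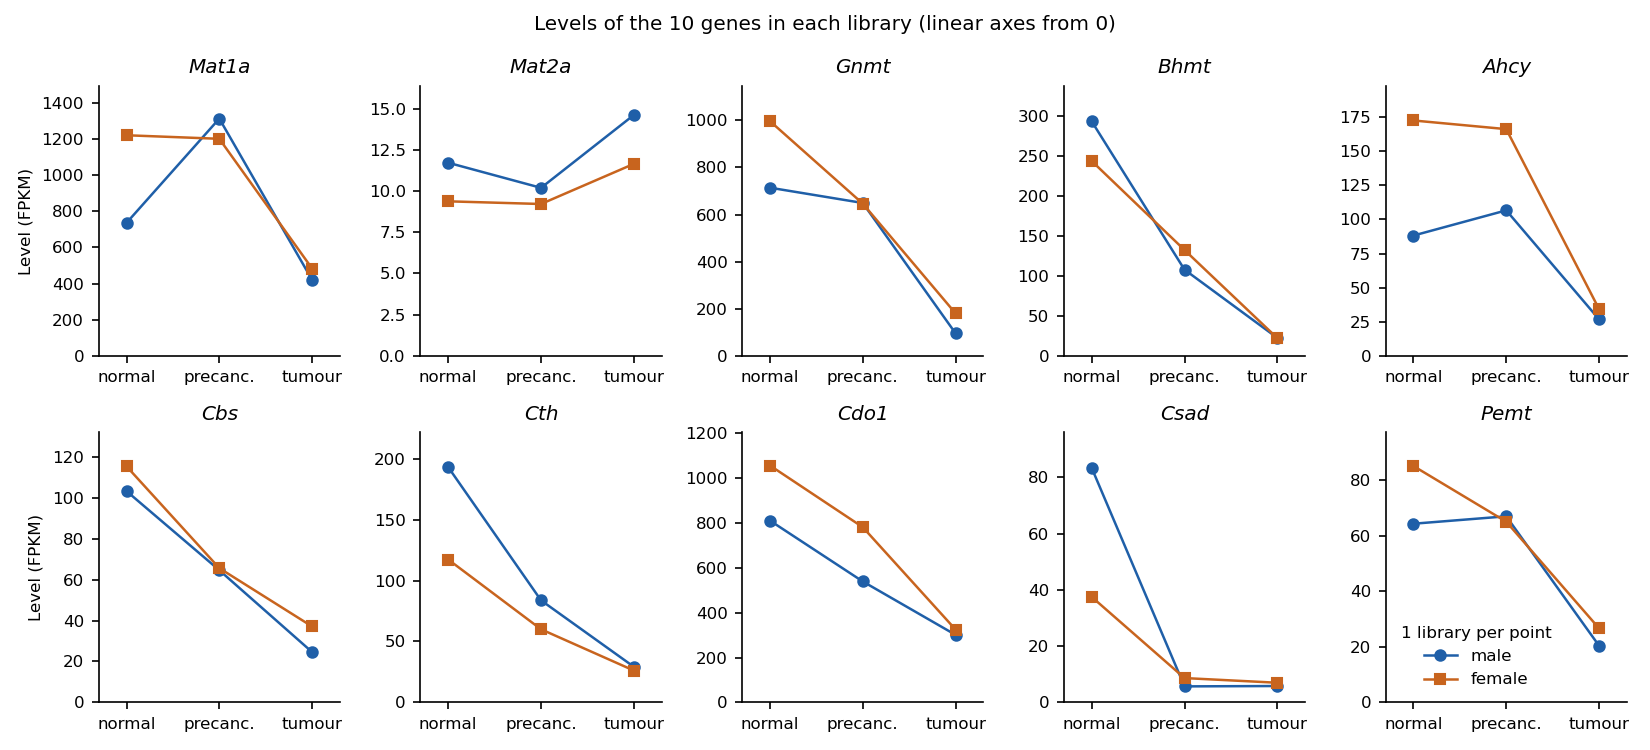
Level of each of the 10 genes in FPKM (y axis, linear from 0) in normal, precancerous and tumour tissue (x axis) of males (circles) and females (squares), 1 library per point. Mat2a is the gene with its highest level in tumour in both sexes, and Csad lies under 9 FPKM in precancerous and tumour tissue of both sexes.

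Mat1a and Mat2a encode methionine adenosyltransferases, which make S-adenosylmethionine. Mat1a, the form of adult liver, stood at 735 FPKM in normal, 1312 FPKM in precancerous and 420.3 FPKM in tumour liver of males, and at 1219.7, 1200.1 and 483 FPKM in those of females. Both tumours lay below all 4 other libraries, while male normal liver lay well below the 3 other non-tumour libraries. Relative to precancerous tissue Mat1a fell 2.88-fold in tumour (log2 fold change -1.52, SE 0.27, adjusted p = 0.0171, edgeR quasi-likelihood test over all 6 libraries with a term for sex). Mat2a stood at 11.7, 10.2 and 14.6 FPKM over the 3 male tissues, normal to tumour, and at 9.38, 9.21 and 11.6 FPKM over the female ones. It was highest in tumour in each sex, but the difference of 0.40 on the log2 scale (SE 0.11) did not pass, with an adjusted p of 0.0598. With the filter raised to 5 FPKM the same difference passed, at 0.42 with an adjusted p of 0.0494.

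Set against each other within a library, Mat1a exceeded Mat2a 62.8-fold in male normal liver, 129-fold in male precancerous tissue and 28.8-fold in male tumour, on the FPKM scale. In females the ratio was 130.1 in normal liver, 130.2 in precancerous tissue and 41.5 in tumour. Both tumours thus had a lower ratio than the 4 other libraries. The size of the ratio depends on the gene lengths the authors used. Their FPKM values imply 9109 bases for Mat2a, more than its locus of 6760 bases, and with GENCODE exonic lengths the ratio was 28.6 and 59.3 in male and female normal liver, 58.6 and 59.3 in precancerous tissue, and 13.1 and 18.9 in tumour. Its order over the libraries does not depend on length.

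**Figure D2:**
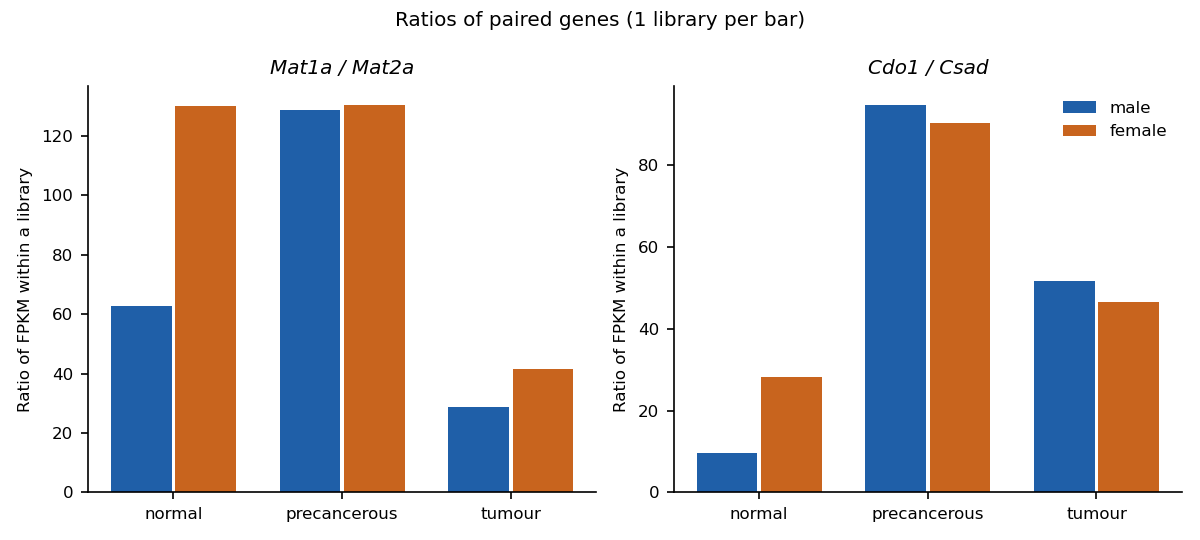
Ratio of FPKM within each library (y axis, from 0) for Mat1a over Mat2a and for Cdo1 over Csad in normal, precancerous and tumour tissue (x axis), with 1 bar per library, males left and females right. The ratio of Mat1a to Mat2a is lowest in the tumours (28.8 in male, 41.5 in female), and that of Cdo1 to Csad is lowest in normal liver (9.73 in male, 28.2 in female).

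Gnmt, Pemt and Ahcy act where S-adenosylmethionine is spent. Gnmt, glycine N-methyltransferase, disposes of surplus methyl groups by making sarcosine. Its level was 714 FPKM (normal), 649 (precancerous) and 95.8 (tumour) in males and 996, 646 and 180.4 FPKM, in that order, in females. Tumour stood 5.04-fold below precancerous tissue (log2 fold change -2.33, SE 0.28, adjusted p = 0.00686, edgeR). In the male pair the ratio of tumour to precancerous tissue was 0.148, with a 95% interval from 0.138 to 0.157. In the female pair it was 0.279, with an interval from 0.271 to 0.288. These intervals cover counting error only, and whether the sexes differ was not tested, since each pair holds 1 library a tissue.

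Pemt, which methylates phosphatidylethanolamine to phosphatidylcholine, stood at 64.3 FPKM in normal, 67.0 FPKM in precancerous and 20.4 FPKM in tumour liver of males, and at 85.1, 65.1 and 26.7 FPKM in those of females. Ahcy hydrolyses S-adenosylhomocysteine, the product left by every such methylation. It stood at 88.2, 107 and 26.8 FPKM over the 3 male tissues, normal to tumour, and at 173, 166 and 34.3 FPKM over the female ones. For both genes the 2 tumours lay below the 4 other libraries without overlap. Against precancerous tissue Pemt fell 2.90-fold (log2 fold change -1.54, SE 0.19, adjusted p = 0.00681, edgeR) and Ahcy fell 4.47-fold (log2 fold change -2.16, SE 0.20, adjusted p = 0.00422, edgeR).

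Bhmt, which uses betaine to turn homocysteine back into methionine, had the largest fall of the 10 genes. It stood at 293 FPKM (normal), 108 (precancerous) and 22.5 (tumour) in males and at 243, 132 and 22.2 FPKM, in that order, in females. In both sexes its level was highest in normal liver, lower in precancerous tissue and lowest in tumour, with no overlap between tissues. Tumour was 5.47-fold below precancerous tissue (log2 fold change -2.45, SE 0.20, adjusted p = 0.00337, edgeR). Among the 11435 tested genes, 176 had a lower fitted change.

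Cbs and Cth carry out the transsulfuration steps, in which homocysteine is joined to serine and the product is cleaved to cysteine. Cbs stood at 103 FPKM in normal, 64.6 FPKM in precancerous and 24.6 FPKM in tumour liver of males, and at 115, 65.6 and 37.1 FPKM in those of females. Cth stood at 193, 83.8 and 29.2 FPKM over the 3 male tissues, normal to tumour, and at 117, 60.0 and 26.2 FPKM over the female ones. Both genes had the same order in each sex, highest in normal liver and lowest in tumour. The fall in tumour relative to precancerous tissue was 2.19-fold for Cbs (log2 fold change -1.13, SE 0.21, adjusted p = 0.0188, edgeR) and 2.60-fold for Cth (log2 fold change -1.38, SE 0.20, adjusted p = 0.00969, edgeR). Together they took 0.126% and 0.105% of counts in male and female normal liver, 0.0654% and 0.0575% in precancerous tissue, and 0.0240% and 0.0297% in tumour.

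Cdo1 and Csad act on cysteine. Cdo1, cysteine dioxygenase, oxidises it to cysteine sulfinate, and Csad removes the carboxyl group of that product to give hypotaurine, from which taurine is made. Cdo1 stood at 811 FPKM (normal), 539.5 (precancerous) and 301 (tumour) in males and at 1057, 782 and 325 FPKM, in that order, in females. It too was lowest in tumour in each sex and fell 2.12-fold relative to precancerous tissue (log2 fold change -1.08, SE 0.18, adjusted p = 0.0146, edgeR). Even so it remained among the most abundant messages, with a level in tumour above 99.1% of tested genes in both sexes.

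Csad stood at 83.3 FPKM in normal, 5.70 FPKM in precancerous and 5.83 FPKM in tumour liver of males (1132, 89 and 97 counts), and at 37.5, 8.66 and 6.99 FPKM in those of females (1500, 295 and 292 counts). The normal libraries lay far above the other 4, and precancerous and tumour tissue were close. Between tumour and precancerous tissue the log2 difference was -0.20 (SE 0.43, adjusted p = 0.770, edgeR). The tumour to precancerous ratio was 1.02 in males (95% interval 0.759 to 1.38) and 0.808 in females (0.685 to 0.953), for counting error only.

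Of the 10 genes 8 were called lower and 0 higher in tumour than in precancerous tissue, where 25.9% of all tested genes were called, 12.1% lower and 13.8% higher. Within the male pair of libraries 7 of the 10 were at least 2-fold lower in tumour, against 7.4% of tested genes, and within the female pair also 7, against 8.31%. The median log2 fold change was -1.45 over the 10 genes and 0.03 over all tested genes. Both tumour libraries lay below both precancerous ones for 8 of the 10 and for 21.3% of tested genes. These calls depended on the precancerous libraries. Without the male precancerous library only Bhmt passed, and without the female one Bhmt, Gnmt, Ahcy and Pemt did. Without the female tumour library Cdo1 did not pass (adjusted p = 0.0537), and in each of these fits all 8 kept their direction.

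**Figure D3:**
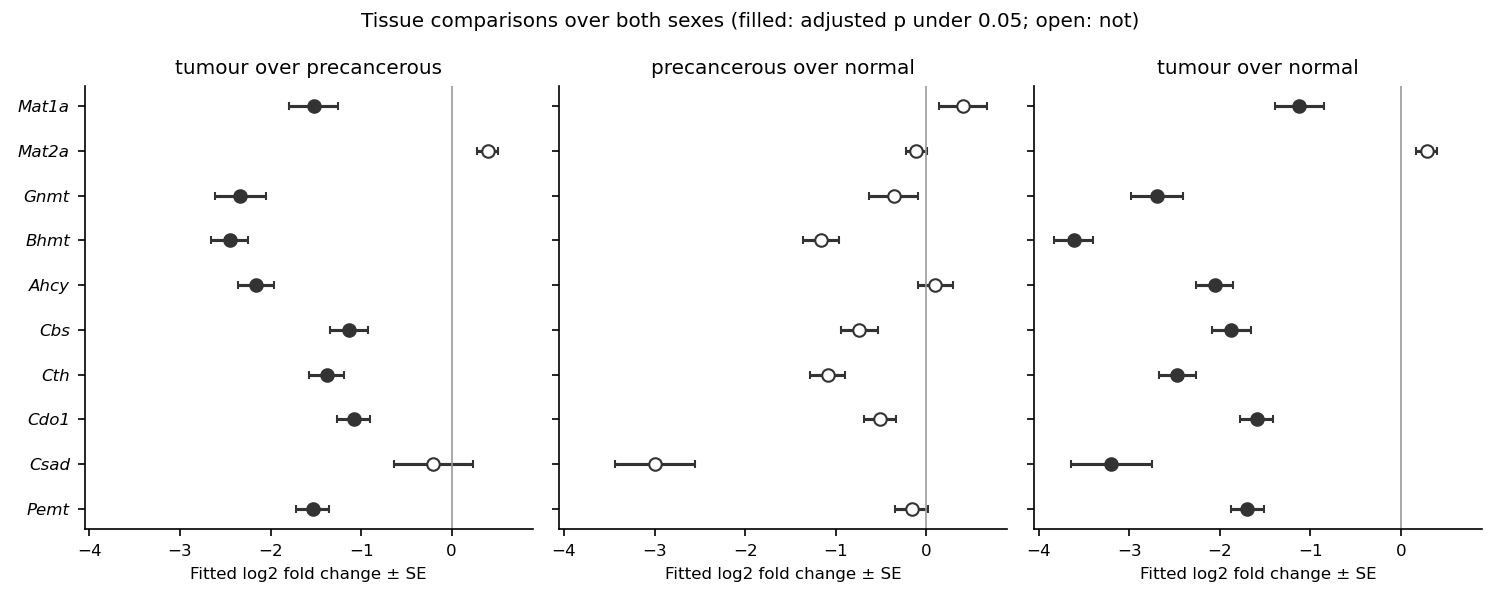
Fitted log2 fold change with its SE (x axis) for each gene (rows) in tumour over precancerous, precancerous over normal and tumour over normal tissue, from edgeR over all 6 libraries. Filled points passed an adjusted p of 0.05: 8 genes in the left panel, 0 in the middle panel and 9 in the right panel.

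Markers of other cells moved in the same comparison. Of 8 macrophage markers 7 fell in tumour relative to precancerous tissue, and their summed level was 61.7 and 107 FPKM in male and female tumour against 167 and 253 FPKM in precancerous tissue. Of 8 stellate and matrix markers 5 rose and 2 fell, with sums of 77.3 and 123 FPKM in tumour against 84.1 and 158 FPKM in precancerous tissue. Dcn made up most of each of these sums and fell, as did Lrat, so the sums mainly follow Dcn. The markers that rose were Col1a1, Col1a2, Col3a1, Acta2 and Pdgfrb. Among 8 endothelial markers 1 rose and 3 fell (47.2 and 50.6 against 68.0 and 80.5 FPKM), and of 3 tested cholangiocyte markers 2 rose (121 and 139 against 9.00 and 14.7 FPKM, most of it Spp1). Of 3 tested T and NK cell markers 2 rose, with sums of 3.53 and 4.43 FPKM against 1.14 and 2.51 FPKM, and Cd3d was at 0 in male precancerous tissue. None of the 3 tested B cell, plasma cell and neutrophil markers passed. Of the 7 hepatocyte markers 2 fell, Apoc3 (log2 fold change -1.16) and Cps1 (-1.18), none rose, and the median was 0.07. In bulk tissue fewer cells of a type and less RNA per cell cannot be told apart, and the part of cell composition in the results above was not tested.

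Precancerous liver of transgenic mice was set against normal liver of WT mice, so tissue and genotype cannot be told apart in this comparison. None of the 10 passed the edgeR test, and in that comparison only 0.254% of tested genes did (0.149% lower and 0.105% higher). At an unadjusted p under 0.05 there were 1807 of 11435 genes, among them Csad, Bhmt, Cth, Cbs and Cdo1, all lower in precancerous tissue. Csad came nearest, with 5.70 and 8.66 FPKM in male and female precancerous tissue against 83.3 and 37.5 FPKM in normal liver. Its ratio was 0.0684 in males (95% interval for counting error 0.0545 to 0.0849) and 0.231 in females (0.203 to 0.262). The fitted log2 fold change was -2.99 (SE 0.45, adjusted p = 0.0879), and only 30 of the 11435 tested genes had a lower one. Other settings differed in the call. Those that made it were the following: DESeq2 gave an adjusted p of 1.1e-08, edgeR without the filter on low values 0.0222, and edgeR on the 4 precancerous and normal libraries alone 0.0414. Leaving out the male tumour, female tumour or female normal library also did, with an adjusted p of 0.0495, 0.0438 and 0.0170. It was no call with limma (adjusted p = 0.141 and 0.136 at pseudocounts of 1 and 0.1), with the filter raised to 5 FPKM (0.117) or without a sex term (0.393). Nor was it one without the male precancerous (0.403), female precancerous (0.319) or male normal library (0.0640), and without that male normal library the log2 difference was -2.18.

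Bhmt followed with a log2 difference of -1.16 (SE 0.20, adjusted p = 0.108) and Cth with -1.09 (SE 0.19, adjusted p = 0.119). Cbs had -0.74 (adjusted p = 0.213) and Cdo1 -0.51 (adjusted p = 0.276). DESeq2 called Csad, Bhmt, Cth and Cbs, 4 of the 10, where it called 368 genes in all and edgeR called 29. Within the male pair 3 of the 10 (Csad, Bhmt and Cth) were at least 2-fold lower in precancerous tissue, against 3.33% of tested genes, and within the female pair 1 (Csad), against 3.01%. Both precancerous libraries lay below both normal ones for 6 of the 10 genes, against 12.9% of tested genes. Mat1a (0.40, adjusted p = 0.529), Ahcy (0.10, adjusted p = 0.852) and Pemt (-0.16, adjusted p = 0.725) had a higher level in precancerous than in normal tissue in males and a lower one in females. For Pemt the male ratio was 1.04, with a 95% counting interval from 0.963 to 1.13 that includes 1. Gnmt (-0.36, adjusted p = 0.576) and Mat2a (-0.11, adjusted p = 0.689) did not pass either. Over the 10 genes the median was -0.44, beside -0.01 over all tested genes. None of the tested cell type markers passed in this comparison, and the macrophage sum was 167 and 253 FPKM in male and female precancerous tissue against 127 and 189.9 FPKM in normal liver.

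The 2 genes of taurine synthesis were both lower in precancerous and tumour tissue than in normal liver of each sex, but their ratio varied between libraries. Their Pearson correlation over the 6 libraries was 0.707, and whether their profiles differ was not tested. Cdo1 exceeded Csad 9.73-fold in male normal liver, 94.6-fold in male precancerous tissue and 51.7-fold in male tumour on the FPKM scale. The female ratio was 28.2 in normal liver, 90.3 in precancerous tissue and 46.5 in tumour. These ratios too depend on the lengths used. With GENCODE exonic lengths they were 15.3 and 44.3 in male and female normal liver, 149 and 142 in precancerous tissue, and 81.4 and 73.1 in tumour, in the same order over the libraries. Csad ranked last of the 10 genes in all 4 transgenic libraries, below Mat2a, whereas in both normal libraries Mat2a was last, with either set of lengths.

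Tumour of transgenic mice was also compared with normal liver of WT mice, so tissue and genotype cannot be told apart in this comparison either. Here 9 of the 10 genes fell, all but Mat2a, where 33.4% of tested genes were called, 16.1% lower and 17.3% higher. Both tumours lay below both normal livers for 9 of the 10, against 22.1% of tested genes. At least 2-fold lower were 8 in the male pair, against 8.56%, and 9 in the female pair, against 11% of tested genes. Bhmt fell 12.2-fold, to 22.5 and 22.2 FPKM in male and female tumour against 293 and 243 FPKM in normal liver (log2 fold change -3.61, SE 0.21, adjusted p = 0.00121, edgeR). Csad fell 9.17-fold (-3.20, SE 0.45, adjusted p = 0.00666). Without the male normal library its log2 fold change was -2.39, and without the female normal one -3.95, and both passed. Gnmt fell 6.46-fold and Cth 5.54-fold. Ahcy, Cbs, Pemt and Cdo1 fell by between 3.02-fold and 4.17-fold. Mat1a had the smallest fall, 2.18-fold (log2 fold change -1.12, SE 0.27, adjusted p = 0.0301). Its call ended without any of 5 of the 6 libraries, all but the male normal one, with adjusted p-values between 0.0552 and 0.139. It also ended without a sex term (adjusted p = 0.126) and with the tumour and normal libraries alone (adjusted p = 0.0598). The Mat2a difference was 0.28 (SE 0.11, adjusted p = 0.116). Of the cell type markers, 5 of 8 for macrophages and 3 of 7 for hepatocytes fell in this comparison and none of either rose. Among 8 stellate and matrix markers 5 rose and 2 fell, among 8 endothelial markers 2 rose and 3 fell, and all 3 tested cholangiocyte markers rose. None of the 3 tested T and NK cell markers and none of the 3 tested B cell, plasma cell and neutrophil markers passed. The part of these cells in the comparison was not tested. The 3 comparisons share libraries, so their values are not independent of each other.

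Males were compared with females over all tissues, a contrast in which 37.3% of tested genes were called, 18.2% lower and 19.1% higher in males. Only Ahcy was called among the 10. From normal to tumour liver it stood at 88.2, 107 and 26.8 FPKM in males against 173, 166 and 34.3 FPKM in females, lower in males in each tissue. The log2 difference, male over female, was -0.75 (SE 0.16, adjusted p = 0.0222, edgeR). Leaving out the normal or the precancerous library of either sex ended that call, with adjusted p-values between 0.0608 and 0.117. In the same contrast 6 of 8 stellate and matrix markers, 5 of 8 macrophage markers, 3 of 8 endothelial markers and 1 of 3 tested T and NK cell markers were called lower in males. No tested marker of these or of the other cell types was called higher in males, and their part in the contrast was not tested. Cth had a higher level in males in each of the 3 tissues, 193 against 117 FPKM in normal liver, but did not pass (0.36, adjusted p = 0.124). Csad was higher in male than in female normal liver, 83.3 against 37.5 FPKM, and lower in male than in female precancerous tissue and tumour, so no overall difference could be read (0.08, adjusted p = 0.875).

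Near-identical gene copies bear on Bhmt and Ahcy. A search of GENCODE transcripts of the same build found Gm5096 99.4% identical to Bhmt over 1869 bases and the pseudogene Bhmt-ps1 98.9% identical over 1224 bases, and Gm4737 99.7% identical to Ahcy over 2083 bases. It also found the pseudogenes Gm9826 (99.2% over 1299 bases) and Gm5638 (94.5% over 1128 bases) for Ahcy. For Mat2a it found the pseudogene Gm9523 (95.2% over 1065 bases). No counts were available for these pseudogenes, so they are not in the sums below. Reads of a gene with copies can be split between them by the authors' counting. Bhmt itself held 38.6% to 43.4% of the counts of its group and Ahcy 41.2% to 47.8%, so the levels of both are uncertain. Summed with its copies, Bhmt took 4542 and 3412 FPM (fragments relative to the library total) in male and female normal liver, 1665 and 1824 in precancerous tissue, and 330.2 and 316 in tumour. Ahcy with Gm4737 took 629 and 1134 FPM in normal liver, 814 and 1127 in precancerous tissue, and 191 and 228 in tumour. With the copies summed, a step added after the data were seen, every tissue call of the 10 genes was the same. Within Bhmt lies the antisense gene Gm15622, which had 296 counts in normal, 159 in precancerous and 39 in tumour liver of males and 0 in every female library. On the other strand, in GENCODE, Particl overlaps 11.3% of the exonic bases of Mat2a and Zfp740 overlaps 7.26% of those of Csad. The Csad locus of the expression table ends at 102189043, before Zfp740 starts at 102203648, so the deposited loci do not overlap. Whether the authors counted by strand is not stated in the labels. With Gm15622 counted in all 3 male libraries and at 0 in all 3 female ones, whether male and female libraries were counted alike was not tested, and this bears on the contrast of males with females.

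The promoters were examined because 8 genes fell together and Mat2a did not. RefSeq windows of the 250 bases before the transcription start (build GRCm38.p6, all on the minus strand) were at hand for 7 genes, which are Mat2a, Gnmt, Bhmt, Ahcy, Cbs, Csad and Pemt, with 2 windows each for Csad and Pemt. Shown are Mat2a, which did not fall in tumour (chr6:72439557-72439806), and Bhmt and Gnmt, with the largest falls there (chr13:93637759-93638008 and chr17:46729166-46729415). Csad, with a low level in the precancerous and tumour libraries, is shown too (chr15:102189044-102189293, the window that adjoins the locus in the table). Capitals mark CG dinucleotides, the sites of DNA methylation in mammals.
Mat2a: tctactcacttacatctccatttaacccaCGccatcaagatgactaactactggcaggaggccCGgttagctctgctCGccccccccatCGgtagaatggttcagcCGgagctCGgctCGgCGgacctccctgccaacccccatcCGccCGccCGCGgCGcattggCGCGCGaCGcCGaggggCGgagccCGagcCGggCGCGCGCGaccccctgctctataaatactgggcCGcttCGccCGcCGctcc
Bhmt: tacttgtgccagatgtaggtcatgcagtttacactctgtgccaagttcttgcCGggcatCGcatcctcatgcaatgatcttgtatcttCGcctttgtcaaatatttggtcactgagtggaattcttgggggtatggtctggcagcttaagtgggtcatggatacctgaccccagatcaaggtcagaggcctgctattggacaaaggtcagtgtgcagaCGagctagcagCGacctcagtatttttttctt
Gnmt: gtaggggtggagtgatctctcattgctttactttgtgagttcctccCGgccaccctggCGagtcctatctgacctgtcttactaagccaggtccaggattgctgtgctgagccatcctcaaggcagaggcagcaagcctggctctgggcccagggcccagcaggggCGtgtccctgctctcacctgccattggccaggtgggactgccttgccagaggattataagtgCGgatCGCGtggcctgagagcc
Csad: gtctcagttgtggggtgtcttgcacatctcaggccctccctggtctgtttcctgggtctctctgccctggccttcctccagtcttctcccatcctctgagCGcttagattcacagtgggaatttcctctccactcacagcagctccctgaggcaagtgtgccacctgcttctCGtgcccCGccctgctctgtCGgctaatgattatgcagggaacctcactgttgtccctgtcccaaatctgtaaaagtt
The Mat2a window held 29 CG dinucleotides and 67.6% G and C bases. Those of Bhmt, Gnmt and Csad held 5, 6 and 4 CG dinucleotides, and the median over 32851 RefSeq windows of that length was 6. Only 6.78% of those windows held at least as many as Mat2a. Cbs, which fell, had 21 in its window, a number that 16.3% of windows reach. Csad, with 4 in the window shown, was like Mat2a not called between tumour and precancerous tissue. Whether CG content bears on the falls was not tested. Methylation was not measured.

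Motifs searched on both strands of these windows were TGACNNNGC (the antioxidant response element core), TGATGNAA (an ATF4 element) and CACGTG (an E-box), which occur in 10.2%, 3.45% and 6.02% of all windows. The motifs do not overlap each other in the windows of the 7 genes, where the only match was a CACGTG in the Cbs window, 229 bases before the start. A match, or its absence from this window, says nothing of a factor's binding.

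Of 15 tested neighbours of the methionine cycle and of its methyl groups 7 fell in tumour relative to precancerous tissue, none rose and the other 8 did not pass, with a median of -0.86. Dmgdh, which takes up the dimethylglycine that Bhmt releases, fell to 23.2 and 25.2 FPKM in male and female tumour against 112 and 130.3 FPKM in precancerous tissue (log2 fold change -2.35, SE 0.15, adjusted p = 0.00279, edgeR). Sardh, which breaks down the sarcosine made by Gnmt, fell too (-1.40, adjusted p = 0.0225), as did Pipox (-1.57), an oxidase of sarcosine and pipecolate in peroxisomes. Nnmt, which spends S-adenosylmethionine on nicotinamide, was at 1.97 and 16.8 FPKM in male and female tumour against 45.4 and 31.7 FPKM in precancerous tissue. Its difference did not pass (-2.24, adjusted p = 0.136).

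Polyamine synthesis and methionine salvage, which use S-adenosylmethionine without methyl transfer, showed no common direction. Of 12 tested genes 1 rose and 3 fell, with a median of 0.03. Mtap, which starts the salvage of methionine from methylthioadenosine, rose (0.69, adjusted p = 0.0262), and Adi1, an enzyme later in the same salvage route, fell (-0.98, adjusted p = 0.00801). The polyamine oxidase Paox fell as well (-0.90), and so did Oaz1 (-0.61), the antizyme that restrains ornithine decarboxylase.

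Cysteine has more than a single use. Of 9 tested genes of glutathione synthesis and cysteine supply 4 rose and none fell, with a median of 0.93. Gclc, the catalytic subunit of the enzyme that joins cysteine to glutamate, stood at 331 and 358 FPKM in male and female tumour against 62.1 and 76.7 FPKM in precancerous tissue (log2 fold change 2.28, SE 0.29, adjusted p = 0.00785, edgeR). Gss, which completes glutathione, had a log2 rise of 0.93 (adjusted p = 0.0120). Slc7a11, which brings in cystine from outside the cell and so supplies cysteine apart from Cbs and Cth, rose as well. Its log2 fold change was 6.29 (SE 1.21, adjusted p = 0.0209, edgeR). It stood at 33.6 and 30.9 FPKM in male and female tumour against 0.0277 and 1.28 FPKM in precancerous tissue. The male precancerous level was near 0, so the size of the fold change is uncertain.

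On the route from cysteine to sulfate, sulfide products and taurine, 4 of 11 tested genes fell in tumour and none rose, with a median of -0.31. Suox, which oxidises the sulfite formed from the product of Cdo1, fell to 5.27 and 4.57 FPKM in male and female tumour against 29.2 and 32.8 FPKM in precancerous tissue (log2 fold change -2.69, SE 0.16, adjusted p = 0.00261, edgeR). Baat, which joins bile acids to taurine and glycine, fell too (log2 fold change -1.62, adjusted p = 0.00441), and the sulfurtransferase Tst fell by 0.88. Slc6a6, the taurine importer, had a difference of 0.07 (adjusted p = 0.792) in this comparison. In tumour against normal liver it rose, by 0.70 (adjusted p = 0.0285). Ethe1, a mitochondrial enzyme of sulfide oxidation, was the only listed pathway gene called between precancerous and normal tissue, at 8.70 and 11.1 FPKM in male and female precancerous tissue against 26.9 and 35.9 FPKM in normal liver (log2 fold change -1.67, SE 0.11, adjusted p = 0.0273, edgeR).

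Phosphatidylcholine can be made from choline as well as by Pemt. Of 9 tested genes listed for phosphatidylcholine synthesis, among them genes that handle ethanolamine, 2 rose and 3 fell, with a median of -0.27. Chka, a choline kinase, rose to 8.29 and 5.93 FPKM in male and female tumour against 1.70 and 1.09 FPKM in precancerous tissue (log2 fold change 2.35, SE 0.28, adjusted p = 0.00677, edgeR). Etnk1, an ethanolamine kinase, rose by 0.66. Chpt1, which performs the last step from choline, fell by 1.26, and Pcyt2 and Pcyt1a, which activate phosphoethanolamine and phosphocholine with cytidine nucleotide, fell by 0.72 and 0.71. The median over all tested genes in this comparison was 0.03, and 12.1% were called lower and 13.8% higher. In tumour against normal liver the counts, rising and falling, were 0 and 8 of 15 for the methionine cycle neighbours, 3 and 4 of 12 for polyamines and salvage, 3 and 0 of 9 for glutathione and cysteine supply, 1 and 6 of 11 for cysteine breakdown, and 2 and 5 of 9 for phosphatidylcholine.

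**Figure D4:**
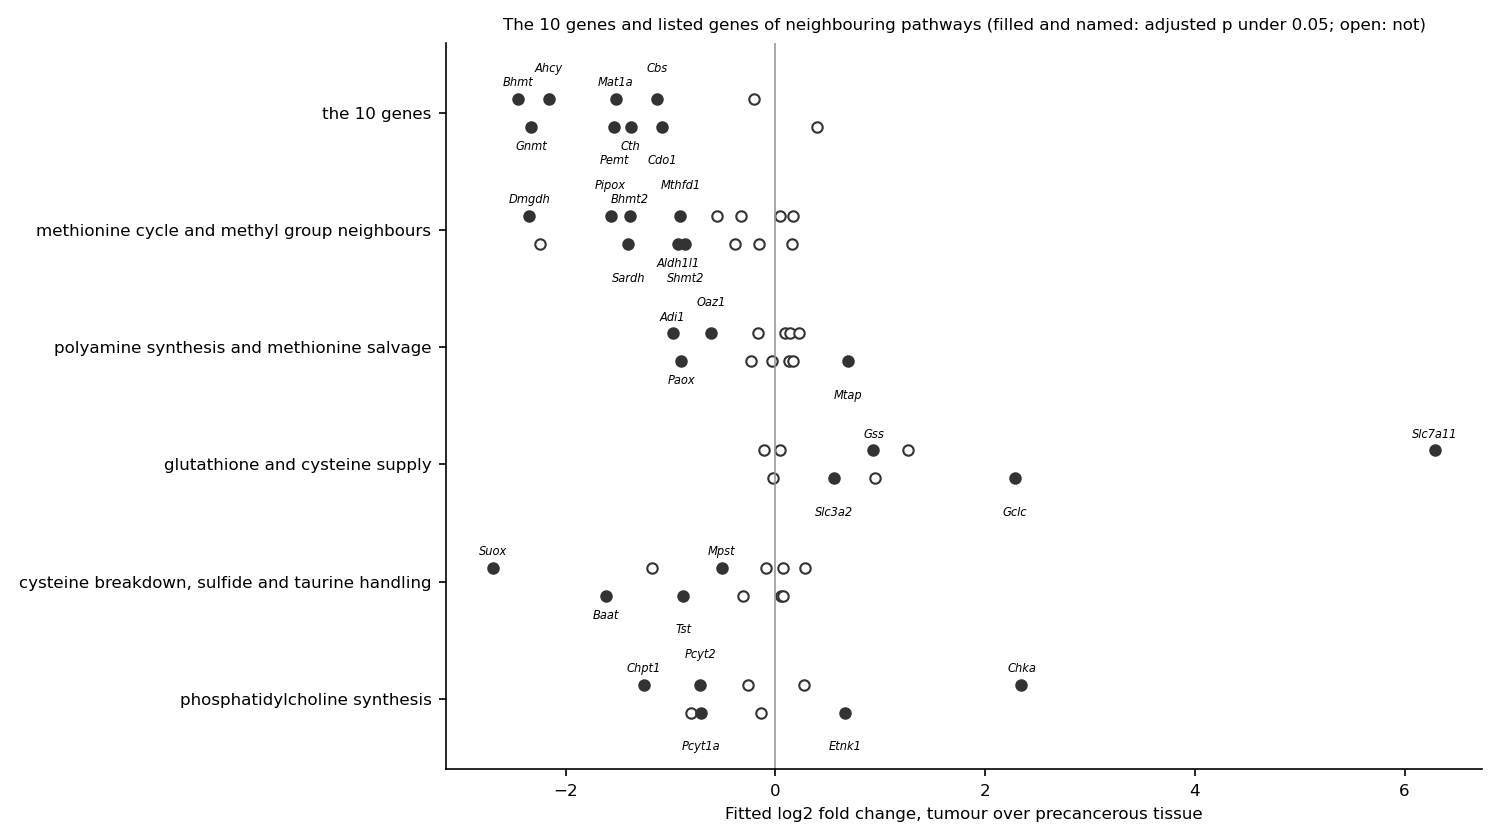
Fitted log2 fold change in tumour over precancerous tissue (x axis) for the 10 genes and for the tested genes of 5 neighbouring pathways (rows), from edgeR. Filled points with names passed an adjusted p of 0.05. In the row of glutathione and cysteine supply the 4 named genes lie right of 0, and in the rows of the 10 genes and of the methionine cycle neighbours all named genes lie left of 0.

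The genes whose profile over the 6 libraries came nearest to each of the 10 were found by distance between centred log2(FPKM + 1) profiles, among 4872 tested and named genes with a mean of at least 5 FPKM. For Bhmt and Ahcy the nearest were their own copies, Gm5096 and Gm4737, followed by Suox for Bhmt and Afmid for Ahcy. Mat1a was nearest to Nr1h4, the bile acid receptor, at a distance of 0.39, and then to Sirt3, a mitochondrial deacetylase. Mat2a was nearest to Brix1, a gene of ribosome assembly, at 0.09, and then to Cdc42. Gnmt was followed by Ang and Pigr, Pemt by Urah and Pipox, Cbs by Sec14l4 and Pecr, Cth by Fitm1 and Ugt3a1, and Cdo1 by Bmp2 and Plbd1. By this distance Csad had no gene as close. Its nearest were Gm43305 at 0.82 and Acsf2 at 1.37. The distance is not scaled, so it tends to be larger for genes with large changes, such as Csad. By Pearson correlation over the 6 libraries Csad was at 0.984 with Gm43305 and 0.919 with Acsf2. Mat1a was at 0.974 with Nr1h4.

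Acsf2, an acyl-CoA synthetase gene, stood at 37.4, 6.33 and 4.19 FPKM over the 3 male tissues, normal to tumour, and at 57.1, 10.99 and 6.16 FPKM over the female ones. Like Csad it was high in normal liver alone, but it was higher in female than in male normal liver, where Csad was higher in the male. These likenesses describe 6 libraries that share 3 tissues, and carry no test.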

How the data were processed

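The expression table was deposited by the authors and holds, per the file headers, whole-number counts and FPKM for each gene and library. The submitters' processing notes name TopHat2 (2.0.9) and Cuffdiff as tools, and GRCm38 and mm10 as builds, but not their roles. Stranded messenger RNA libraries were made from RNA isolated with a mirVana kit, per the labels' protocols. The deposited counts were not normalized. In 9962 genes with at least 20 counts in every library the deposited FPKM values gave the same gene length in each library, within a ratio of 0.99996 to 1.00004, so they carry no further scaling.

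Genes that reached an FPKM of 1 in 2 or more libraries (11435) were tested with edgeR 4.0.16 in R 4.3.3, by the quasi-likelihood test on the deposited counts scaled by TMM, in a model with terms for tissue and sex over 6 libraries, which leaves 2 residual degrees of freedom. A gene was called at a two-sided Benjamini-Hochberg adjusted p under 0.05 over all tested genes. The SE is the absolute log2 fold change divided by the square root of the F statistic. The p-values measure only how these libraries spread, and the sexes stand in for replicates of a tissue. Ratios of single libraries are ratios of FPKM with exact 95% intervals from the counts, which cover counting error only. Alternatives used DESeq2 1.42.0 and limma 3.58.1 on log2(FPKM + 1), and blastn 2.17.0 found copies at 90% identity or more over at least 1000 bases. The edgeR script was tested on simulated data first.

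The 10 genes, the pathway and marker lists and the tests were chosen with earlier results of these data known. The rule for names took all 10 genes, at most 3 called genes per direction from each pathway list, largest change first, listed genes that supply or use a metabolite of a gene in the same sentence, and the 2 nearest genes by profile. Nnmt, Gadl1 and the cell type markers were named outside it, after their values were seen. Sqor was tested under its older symbol Sqrdl, and Tf was not analysed here.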

Additional observations from a re-analysis of the deposited data

Results flagged for a closer look

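Mat1a had a higher level in precancerous than in normal liver in males and a nearly equal one in females. In males the ratio of precancerous to normal FPKM was 1.78 (1312 against 735 FPKM), and in females it was 0.984 (1200.1 against 1219.7 FPKM). Ahcy had a ratio of 1.21 in males (107 against 88.2 FPKM) and 0.963 in females (166 against 173 FPKM). For Pemt the ratio was 1.04 in males (67.0 against 64.3 FPKM) and 0.764 in females (65.1 against 85.1 FPKM). Between tumour and precancerous tissue Csad had a ratio of 1.02 in males (5.83 against 5.70 FPKM) and 0.808 in females (6.99 against 8.66 FPKM). The 95% counting interval of the male ratio includes 1 for Pemt and for Csad. With 1 library per tissue and sex, the difference between the sexes was not tested for any of these genes. Total counts were 6891837 and 5996585 in the male precancerous and normal libraries and 15047022 and 17655912 in the female ones.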

How the results depend on the processing

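Of 580 values of the 10 genes under the alternatives, 528 kept their direction and their side of the threshold, 32 lost a call, 11 gained one and 9 changed sign. In tumour against precancerous tissue 8 of the 10 genes were called; without a sex term 1 was (113 of all tested genes), and leaving out 1 library gave between 1 and 8. In precancerous against normal tissue 0 were called, against 4 with DESeq2, 1 with no filter on low values, 1 with only the 2 tissues compared, and 0 to 1 with a library left out. In tumour against normal tissue 9 were called, against 6 without a sex term, where Ahcy (adjusted p = 0.0729), Cdo1 (0.0584) and Mat1a (0.126) lost the call, 8 with only the 2 tissues, and 8 to 9 with a library left out. In males against females 1 was called, against 2 with DESeq2 and 0 to 1 with a library left out. The cause was not tested, beyond the smaller number of libraries or genes where these were left out. Sign changes were all in values that were not called. With a library left out the log2 difference ranged between -0.12 and 0.35 for Ahcy and between -0.37 and 0.083 for Pemt in precancerous against normal tissue, between -0.66 and 0.41 for Csad in tumour against precancerous tissue, and between -0.23 and 0.038 for Bhmt and -0.53 and 0.39 for Csad in males against females, where Bhmt with its copies summed gave 0.024. Over all genes the tumour against precancerous count of 2965 was 1783 with the stricter filter and 458 to 2933 with a library left out. The precancerous against normal count of 29 was 368 with DESeq2, 3 and 10 with limma at pseudocounts of 1 and 0.1, 183 with no filter, 9 with the stricter one, 0 with no sex term, 213 with only the 2 tissues, and 0 to 219 with a library left out. The tumour against normal count of 3819 was 2262, 690 and 2480 with the stricter filter, no sex term and 2 tissues, and 1923 to 3241 with a library left out. The male against female count of 4270 was 2314 with the stricter filter and 762 to 3732 with a library left out, and its split of 2187 higher and 2083 lower was 2571 and 1507 with limma. No paired analysis was possible because the labels give no replicate numbers shared between groups. The sex term of the model sets the tissues against each other within each sex. Depth limits Csad most, with 89 counts in male precancerous tissue.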

Other observations

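Gadl1, a decarboxylase gene related to Csad, stood at 6.94 FPKM in normal, 7.99 FPKM in precancerous and 8.65 FPKM in tumour liver of males and had 0 counts in all 3 female libraries. It passed in none of the tissue comparisons, and sex, age and library cannot be told apart in it. Whether male and female libraries were counted alike was not tested. Gnmt was at 0.971 and 0.817 of the Mat1a level in male and female normal liver, 0.495 and 0.538 in precancerous tissue, and 0.228 and 0.373 in tumour, on the FPKM scale. With GENCODE exonic lengths in place of those the authors used, it was at 1.38 and 1.16 of the Mat1a level in normal liver, 0.702 and 0.764 in precancerous tissue, and 0.323 and 0.530 in tumour, so which of them is higher in normal liver depends on the lengths. The order of these ratios over the 3 tissues was the same in both sexes. Srm, which makes spermidine, and Sat1, which acetylates polyamines for breakdown and export, rose in tumour against normal liver, by 0.90 (adjusted p = 0.0257) and 0.71 (adjusted p = 0.00944, edgeR) on the log2 scale.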
